A study of Drosophila melanogaster and Drosophila biarmipes with 20 samples.

Results

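Cytosolic ribosomal protein genes were followed through wing development of Drosophila melanogaster in lists of open chromatin. The set held every dm6 protein-coding gene whose symbol begins with RpL or RpS followed by a digit or P, which gave 92 of 13946 genes, 47 of the large subunit, 37 of the small subunit, 3 of the acidic stalk and 5 with symbols ending in -like. Open regions had been found by ATAC-seq, in which a transposase cuts accessible DNA, in male wings at 5 stages (0%, 48%, 60%, 69% and 78% of the pupal period), with 2 libraries per stage that the labels call biological replicates. The 0% libraries came from wing imaginal discs (24 discs), those of 48% from 14 to 17 wings of at least 11 animals, and those of 60%, 69% and 78% from 24 wings, so each library pools several animals. Flies of both species in the study were genome lines reared at 20 C, and no transgene, mutation or agent is named for them. The other species, D. biarmipes, was not analysed here. A protocol label calls the 48% stage 47%.

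Each cytosolic ribosome joins a small subunit, which reads the messenger RNA, to a large subunit, which forms the peptide bond, and nearly every protein of both is encoded in the fly by a single active gene. Their genes are transcribed strongly and together in growing tissue, and loss of a single copy of many of them gives the Minute phenotype of slow development and thin bristles. In the wing disc, cells carrying such a loss are outcompeted by their normal neighbours. Some members also exist as paralogous pairs, in which a copy can be used mainly in germ cells.

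The 10 lists held 41485 to 80705 regions from 56282342 to 119278540 sequenced tags. Per the file headers, the region caller used an estimated fragment length for each library, 138 to 208 bp in 4 of them (both of 48%, the first of 0% and the second of 60%) and 50 to 58 bp in the 6 others. These are called the long and the short setting below. The listed region at a member's end was wider under the long one, with a median of 537.5 to 825 bp per library against 329.5 to 466.5 bp. The share of tags inside regions was 56.1% and 59.2% at 0%, 62.5% and 62.8% at 48%, 55.4% and 53.1% at 60%, 46.3% and 46.9% at 69%, and 37.5% and 39.2% at 78%. The wing genes vg, nub and ap were listed at a gene end in all 10 libraries. The lists hold presence only, so a region's strength was not measured, and fewer cells with an open region cannot be told apart from a weaker opening in every cell.

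Ribosomal protein genes were open at a gene end through all stages, with few exceptions. A gene end was called listed when a listed region shared at least 1 base with the window of 501 bp centred on it. Of the 92 genes, 88 (95.7%) were listed at an end in all 10 libraries, and none lacked a listed end in every library. Over all protein-coding genes the share listed in all 10 libraries was 62%, and 8.71% had no listed end in any. The table of genes gives spans without strand or exons, so the end that carries the transcription start was not determined. In its place, the end with the larger mean covered length over the 10 libraries was used for every gene, and is called the more covered end.

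**Figure D1:**
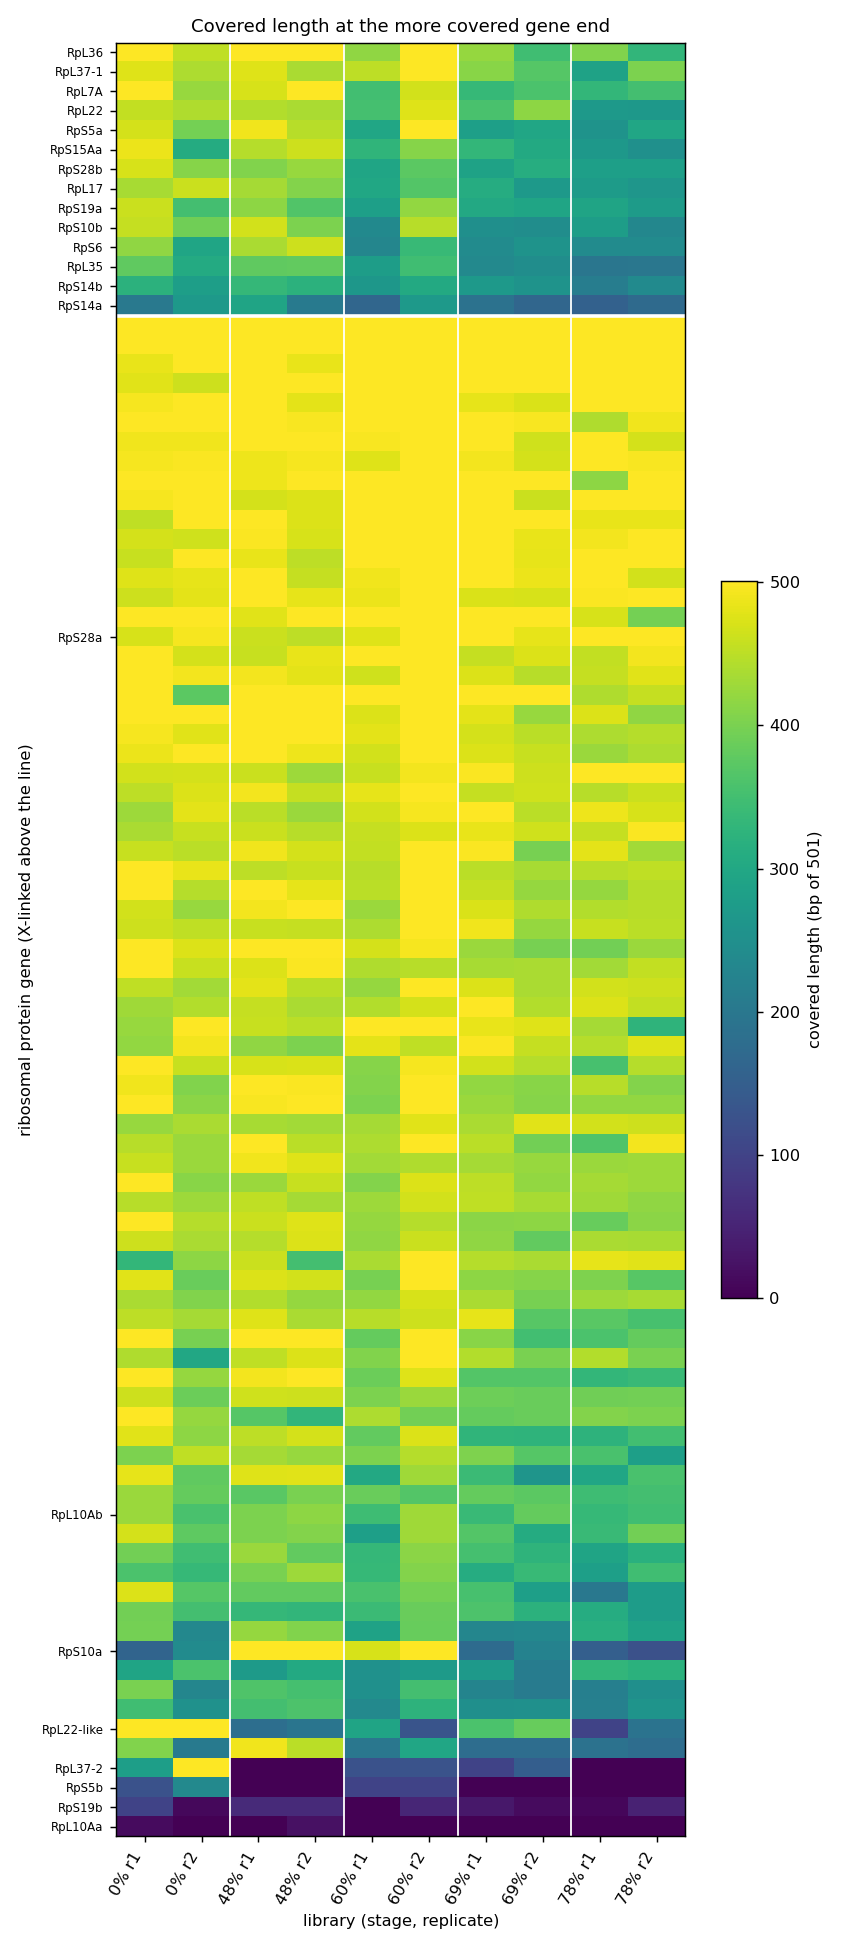
Covered length of the 501 bp window at the more covered end, for each of the 92 genes (rows, X-linked genes above the white line, each block ordered by mean, with the X-linked genes and the paralogous pairs of the text labelled) in each of the 10 libraries (columns, stage and replicate). Of the 92 rows, 60 have a mean of at least 400 bp over the libraries, and RpL10Aa, RpS19b, RpS5b and RpL37-2 are the 4 lowest rows. The X-linked rows are darker in replicate 1 of 60% and in the libraries of 69% and 78%, all of the short fragment setting.

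At the more covered end, 91 of the 92 genes were listed by both libraries at 0%, 89 at 48%, 90 at 60%, 90 at 69% and 89 at 78%. The same shares over all genes were 72.9%, 67.9%, 73.2%, 76.7% and 73.6%. The other end was listed in both libraries at 42, 38, 46, 45 and 44 of the 92 genes in the same order of stages, and in all 10 libraries at 30 genes (32.6%, against 12.2% of all genes). It was listed in no library at 20 genes (21.7%, against 39.5%). The members are short, with a median span of 1315 bp against 2161 bp for all genes, so a region at an end covers more of them. Listed regions covered a median of 35.1% ± 5.24 of a member's span at 0%, 32.8% ± 3.18 at 48%, 39.5% ± 0.289 at 60%, 39.7% ± 4.30 at 69% and 38.8% ± 1.91 at 78% (SD, n = 2 libraries each). For all genes these shares lay between 11.8% and 16.5%.

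The listed stretch lay on both sides of the end. At the end itself 94.6% of members were covered at 0%, 91.8% at 48%, 95.1% at 60%, 91.8% at 69% and 90.2% at 78%, as means of 2 libraries, against 57.1% to 62.8% of all genes. At 500 bp before the gene 57.1% to 64.1% of members were covered, and at 500 bp into it 39.1% to 50%. Coverage was not smooth. At 250 bp before the gene it was 67.9% at 0%, 69.6% at 48%, 62.0% at 60%, 54.3% at 69% and 53.3% at 78%, and at 100 bp into the gene 86.4%, 91.3%, 84.2%, 69.6% and 67.9%. Within 60%, where the settings differ, the value at 100 bp into the gene was 91.3% in the long and 77.2% in the short library. It thus moved with the setting. In the long libraries it was 92.4% at 0%, 91.3% in both of 48% and 91.3% at 60%. In the short ones it was 80.4% at 0%, 77.2% at 60%, 76.1% and 63.0% at 69%, and 63.0% and 72.8% at 78%. The libraries of 69% and 78% all have the short setting, so the lower means there cannot be told apart from it. Differences between stages within a setting were not tested here.

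**Figure D2:**
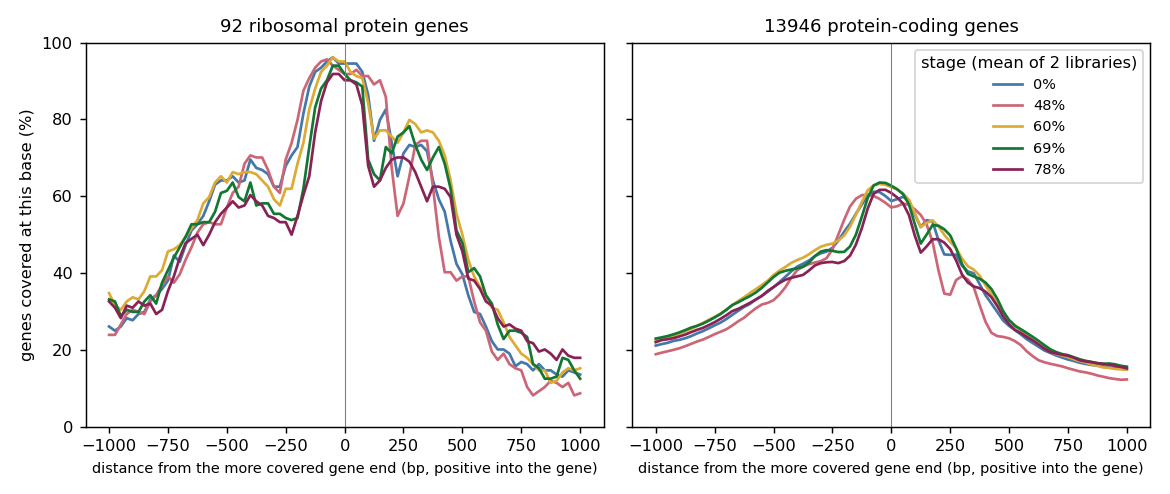
Share of genes covered by a listed region at each distance from the more covered end (bp, positive values into the gene), for the 92 ribosomal protein genes and all 13946 protein-coding genes, as the mean of 2 libraries per stage. The members reach 90.2% to 95.1% at the end at every stage, and the means dip on both sides at 69% and 78%, where all libraries have the short setting. At 125 bp into the gene the 4 long-setting libraries had 89.1% to 90.2%. The 6 short-setting ones had 58.7% to 70.7%, with 58.7% at 0% and 59.8% at 60%. The dip in the means therefore cannot be told apart from the setting.

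By role, the stalk genes had the longest covered ends. The stalk proteins, which recruit the translation factors to the ribosome, are encoded by RpLP0, RpLP1 and RpLP2. Their median covered length was 501 bp in both libraries at 0%, 492 and 481 bp at 48%, 500 and 501 bp at 60%, 483 and 473 bp at 69%, and 470 and 479 bp at 78%. All 3 were listed at both ends in all 10 libraries. For the large subunit the stage means ran from 421.5 to 463.5 bp and for the small subunit from 393.5 to 455 bp. Of the large subunit genes 45 of 47 were listed at an end in all 10 libraries and of the small subunit genes 35 of 37.

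The longest covered ends were those of RpL30, RpL41 and RpL19, all of the large subunit. RpL30 (2L, 19008031 to 19009306) and RpL41 (2R, 24903416 to 24903935), which encodes one of the smallest known proteins, were covered over the whole window in all 10 libraries. RpL19 (2R, 24967877 to 24969547) had 484 bp in replicate 1 at 0% and in replicate 2 at 48% and 501 bp in the 8 others. RpL30 lies in a region of 1655 bp of the merged lists and RpL41 in a region of 2079 bp. RpL41 lies inside the sodium channel gene NaCP60E, the span of RpL30 overlaps CG31793, and the window of RpL19 holds an end of CG3776. Such crowding was common: 27 of the 92 windows held an end of another protein-coding gene, and 25 members overlapped the span of another. A region there cannot be told apart from one of the neighbour. Members with another gene's end in the window had stage means of the median from 452.5 to 474.5 bp (27 genes), and those without from 379 to 453 bp (65 genes).

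The 4 genes not listed at an end in every library all have a paralog that was listed in all of them. They are RpS5b, RpS19b, RpL10Aa and RpL37-2. Their counterparts are RpS5a, RpS19a, RpL10Ab and RpL37-1. In D. melanogaster RpS5b and RpS19b are known as copies used mainly in germ cells.

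RpS5b (3R, 14900432 to 14901563) had a single region at its more covered end, from 14901452 to 14901719. Its covered length was 127 and 236 bp at 0%, 101 bp in both libraries at 60%, and 0 in both libraries at 48%, 69% and 78%. The region was thus listed in every library of 0% and 60% and in none of the other stages. RpS5a (X, 17143588 to 17148264) had 469 and 397 bp at 0%, 490 and 447 bp at 48%, 297 and 501 bp at 60%, 282 and 296 bp at 69%, and 257 and 297 bp at 78%. In no library did RpS5b reach RpS5a.

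RpL37-2 (2R, 23100057 to 23100478) was listed widest in the disc. Its covered length was 281 and 501 bp at 0%, 0 in both libraries at 48%, 126 and 129 bp at 60%, 101 and 149 bp at 69%, and 0 in both at 78%. The 0% libraries lay above all 8 others. A merged region from 23099368 to 23100478 was listed in 9 of the 10 libraries, all but replicate 1 of 48%. In replicate 2 of 48% and in both libraries of 78% its listed part lay outside the window. A covered length of 0 there is thus no absence of a listed region beside the gene. RpL37-1 (X, 15137870 to 15139367) ran from 289 bp, in replicate 1 at 78%, to 501 bp, in replicate 2 at 60%, and was above RpL37-2 in every library but replicate 2 at 0%.

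RpL10Aa (3R, 15037366 to 15038149) and RpS19b (3R, 23932729 to 23933530) had hardly any covered length at an end. For RpL10Aa it was 15 bp in replicate 1 at 0%, 22 bp in replicate 2 at 48% and 0 in the 8 others, from a region that begins 229 bp beyond the gene. RpL10Ab (3L, 11822851 to 11824211) had 336 to 430 bp. For RpS19b it was 0 to 101 bp, all from a region of the neighbouring gene CG5854 that begins at 23933680. Inside RpS19b another (23933012 to 23933279) was listed by all 6 libraries of 60%, 69% and 78% and by none of 0% and 48%. RpS19a (X, 16637894 to 16639249) had 275 to 461 bp.

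**Figure D3:**
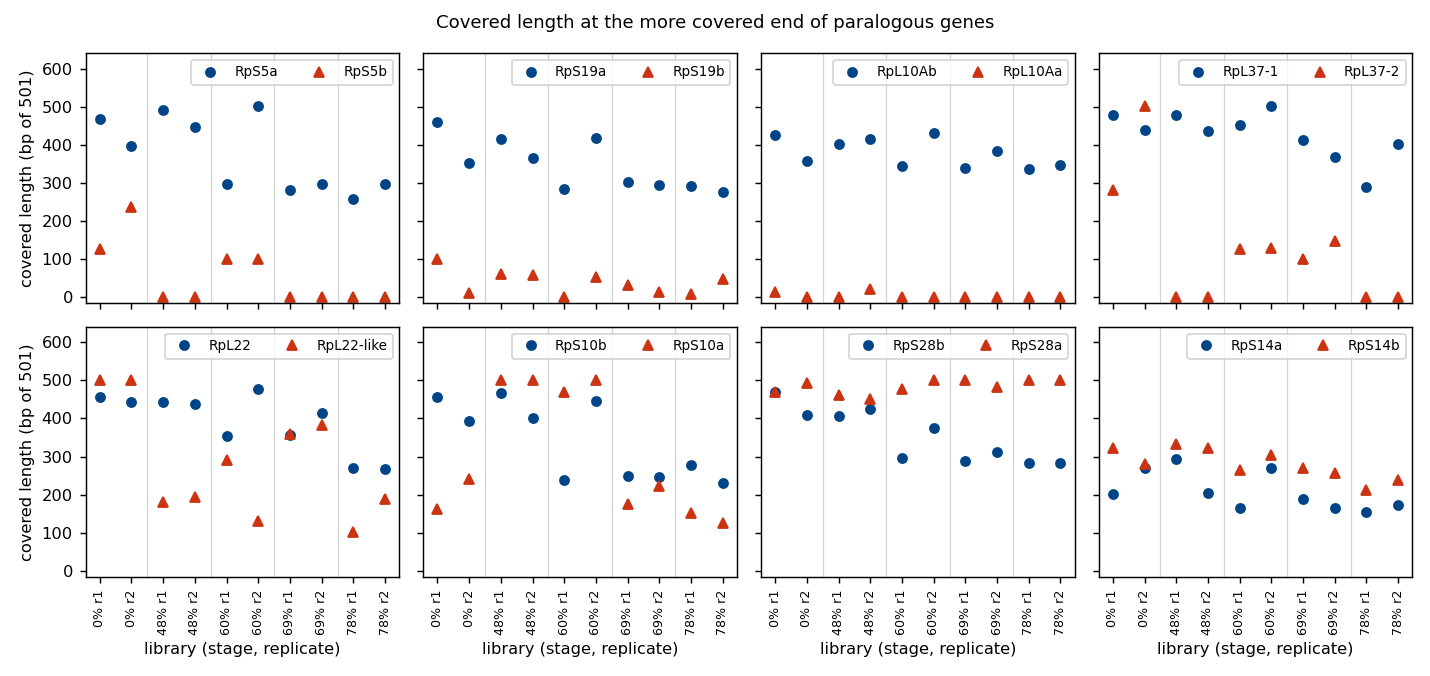
Covered length (bp of the 501 bp window at the more covered end) in each library for 8 paralogous pairs, 1 point per gene and library. RpS5b, RpL10Aa and RpL37-2 (triangles, upper row) are at 0 in 6, 8 and 4 of the 10 libraries and RpS19b does not exceed 101 bp, while none of their counterparts (circles) is at 0. RpL22-like and RpS10a differ between stages, and RpS28a stays at 451 to 501 bp.

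Other paralogs were listed in all 10 libraries, with different courses. RpL22-like (2R, 23246610 to 23247893), known in D. melanogaster for its use in testis, had 501 bp in both libraries at 0%, 182 and 194 bp at 48%, 292 and 130 bp at 60%, 360 and 384 bp at 69%, and 101 and 190 bp at 78%. The disc libraries were above all others. Its second region, from 23247732 to 23248340 at the other end, was listed in all 6 libraries of 0%, 48% and 60% and in none of 69% and 78%. RpL22 (X, 762560 to 765130) had 267 to 476 bp.

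RpS10a (3R, 27652760 to 27653363) had 162 and 241 bp at 0%, 501 bp in both libraries at 48%, 470 and 501 bp at 60%, 175 and 223 bp at 69%, and 152 and 125 bp at 78%. The 4 libraries of 48% and 60% were above the 6 others, and replicate 1 of 60% has the short setting like those of 69% and 78%. The gene overlaps tau, which encodes a microtubule-binding protein, and the region, from 27652909 to 27655330, reaches over both genes. RpS10b (X, 19598031 to 19599806) had 231 to 466 bp. RpS28a (3R, 30022345 to 30022648) had 451 to 501 bp, in a region of 2196 bp that also covers parts of Mgat2 and Axn, and RpS28b (X, 9554623 to 9555661) had 282 to 470 bp. RpS14a (7933742 to 7934677) and RpS14b (7934898 to 7935792) lie side by side on the X and are near-identical copies, so their reads may be hard to place and their values are uncertain. They had 155 to 293 bp and 212 to 333 bp.

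The genes with symbols ending in -like were all listed in all 10 libraries. RpL24-like and RpLP0-like correspond to yeast factors that assemble the large subunit. RpL24-like had 464 to 501 bp, RpLP0-like 427 to 501 bp, RpL7-like 355 to 482 bp and RpS28-like 210 to 360 bp. All 4 windows held an end of another gene (CG5276, 14-3-3zeta, CG34164 and numb).

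Over all members the stage means of covered length were lower at 69% and 78% than before, but so were those of all genes. The median over the 92 genes was 464.5 and 435 bp at 0%, 462.5 and 457 bp at 48%, 423 and 485 bp at 60%, 434.5 and 410 bp at 69%, and 417.5 and 415 bp at 78%. The stage means were 449.8 ± 20.9, 459.8 ± 3.89, 454 ± 43.8, 422 ± 17.3 and 416 ± 1.77 bp (SD, n = 2 each). For all protein-coding genes they were 342.5 ± 17.7, 351 ± 9.90, 350.5 ± 30.4, 320.5 ± 10.6 and 291.5 ± 13.4 bp. The 4 long-setting libraries ran from 457 to 485 bp over the members and the 6 short-setting ones from 410 to 435 bp, without overlap, and both 48% libraries are long while all of 69% and 78% are short. The setting and these stages therefore cannot be told apart in the pooled medians.

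Single genes were set against the spread of 2 libraries per stage. Between 48% and 78%, both later libraries were shorter than both earlier ones at 56 of 90 members with any covered length (62.2%) and longer at 11 (12.2%), where 42.2% and 20.8% of all genes were. From 0% to 48%, 18 of 92 were longer (19.6%) and 13 shorter (14.1%), against 24.7% and 21.4% of all genes. From 0% to 78%, 9 were longer (9.78%) and 43 shorter (46.7%), against 19.6% and 33.5%. A pair of stages with 2 libraries each allows no exact p below 0.333 (two-sided), so these are descriptions. Both 48% libraries have the long setting and both of 78% the short one. Within 60% alone, the long library had the longer covered end at 78.3% of members and at 49.5% of all genes. The shares from 48% to 78% therefore cannot be told apart from the setting. A test of all 5 stages together, the exact permutation test over the 945 ways to pair 10 libraries, passed 0 of the 92 members and 0 of 13946 genes (0%) after Benjamini-Hochberg adjustment. Its smallest possible p is 0.00106, so over 13946 genes none can pass the adjustment unless many reach such small values together. At an unadjusted p under 0.05 there were 11 members (12.0%) and 21.4% of all genes.

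The limma F-test over stages, which shares the spread between genes and was added after the permutation test was seen, called 9 of 92 members (9.78%) at an adjusted p of at most 0.05, against 24.1% of 12732 genes. Covered length is capped at the window, which that model leaves out. With the setting as a further term it called 8 members, against 18.4% of genes, and with the replicate number as a block 5, against 20.3%. With the dated folder that the headers give for each library as a term it also called 5, against 19.7% of genes. All 4 fits called RpL22-like, RpL37-2, RpS5b and RpS10a. Their limma adjusted p was 0.0180, 0.0277, 0.0228 and 0.000957 in the same order. RpL35 and RpS28b passed without further terms and with the setting, RpL17 without further terms, with the block and with the folder, RpL38 and RpS4 without further terms alone, and RpS6 and RpL26 with the setting alone.

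Every X-linked member had a shorter covered end at 78% than at 0% and 48%. The X held 14 members, 8 of the small and 6 of the large subunit. At all 14, both 78% libraries lay below both of 48% and below both of 0%. The same was so at 79.4% and 73.8% of all X genes with covered length, and at 54.7% and 36.4% of the members on chromosomes 2 and 3. These genes were singled out after their values had been seen.

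The median over the 14 X genes was 458.5 and 394.5 bp at 0%, 440.5 and 430.5 bp at 48%, 296 and 414.5 bp at 60%, 296 and 295.5 bp at 69%, and 272.5 and 265.5 bp at 78%. Within the short setting it was thus 394.5 bp at 0%, 296 bp at 60% and 265.5 to 296 bp later, and within the long setting 458.5 bp at 0%, 430.5 to 440.5 bp at 48% and 414.5 bp at 60%. In the short setting all 14 genes were shorter at 78% than at 0%, by a median difference of -100 bp. On chromosomes 2 and 3 the median over 77 members was 422 to 451 bp in the short and 459 to 501 bp in the long setting, and at 78% 42 of 77 were shorter than at 0% in the short setting, by a median difference of -4.5 bp. Over all X genes the short-setting median was 269 bp at 0% and 175 bp at 78% (of the 2 libraries' mean per gene). By the same measure as for the members, 62.0% of the 2197 X genes were shorter at 78%, with a median difference of -37.5 bp. Of all genes on chromosomes 2 and 3, 44.6% were shorter, with a median difference of 0 bp. Genes without covered length are counted in both. The headers place replicate 1 of every stage and replicate 2 of 48% in 1 dated folder. There the X members had 458.5 bp at 0%, 440.5 and 430.5 bp at 48%, 296 bp at 60% and 69%, and 272.5 bp at 78%. In that folder the libraries of 0% and 48% have the long setting and those of 60%, 69% and 78% the short one. The later stages and the setting therefore cannot be told apart there. The second folder holds replicate 2 of the other stages. Its short-setting libraries had 394.5 bp at 0%, 295.5 bp at 69% and 265.5 bp at 78%, and its long-setting library of 60% had 414.5 bp. Each stage has 1 library in that folder, and the differences were not tested.

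**Figure D4:**
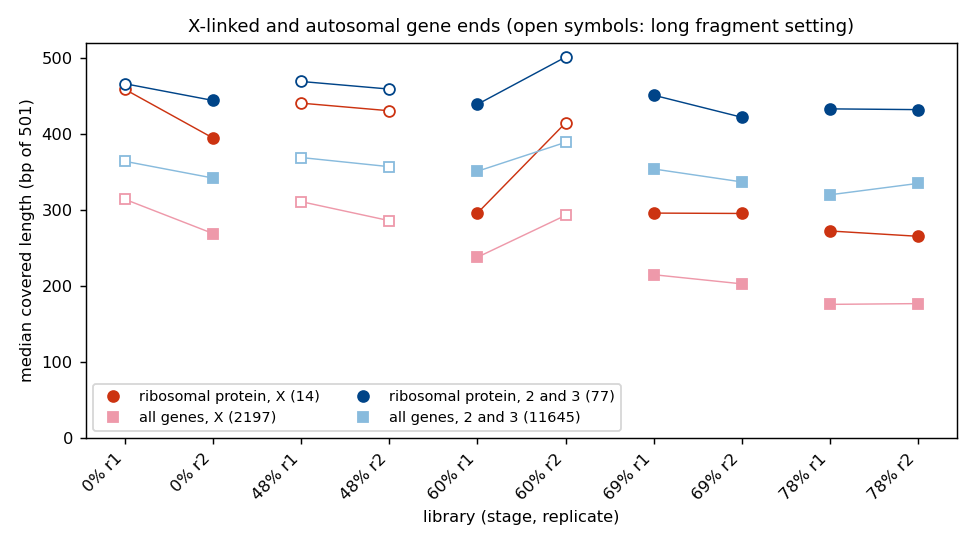
Median covered length (bp of 501) at the more covered end in each library, for X-linked and chromosome 2 and 3 genes, ribosomal protein genes as circles and all genes as squares, open symbols for libraries of the long fragment setting. Both X series are lowest at 78%, where the 14 X members had 272.5 and 265.5 bp, while the 77 members on chromosomes 2 and 3 had 433 and 432 bp.

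The largest difference from 48% to 78% on the X was at RpS6, whose product is phosphorylated by S6 kinase when growth signalling is on. RpS6 (7899624 to 7901331) had 418 and 294 bp at 0%, 438 and 463 bp at 48%, 230 and 337 bp at 60%, 241 and 258 bp at 69%, and 241 bp in both libraries at 78%. RpS15Aa (13335637 to 13337705) followed with 446 and 463 bp at 48% and 267 and 252 bp at 78%. RpL35 (5672401 to 5673547) had 378 and 381 bp at 48% and 197 and 198 bp at 78%. The stage means of the other X members differed by -84.5 bp (RpS14a) to -191.5 bp (RpS5a). Both 48% libraries have the long setting and both of 78% the short one, so these differences cannot be told apart from the setting. Within the short setting RpS6 had 294 bp at 0%, 230 bp at 60%, 241 and 258 bp at 69%, and 241 bp in both libraries at 78%. The lists held 5757 and 7848 X regions at 0%, 4906 and 5429 at 48%, 6364 and 4395 at 60%, 5735 and 5696 at 69%, and 4648 and 4765 at 78%. The share of tags inside regions was lowest at 78% as well, and the part of either in the X values was not tested.

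Other genes of protein synthesis were listed as widely. Mitochondrial ribosomal protein genes (73 of 73), translation factors (36 of 36) and ribosome biogenesis genes (19 of 19, with 2 further symbols unmatched) were listed at an end in all 10 libraries. Their median covered length had stage means of 406.5 to 443.5 bp, 386.8 to 452.2 bp and 426 to 472.5 bp. From 48% to 78% the share of genes with shorter ends was 41.1% for mitochondrial ribosomal genes, 72.2% for translation factors and 42.1% for ribosome biogenesis genes, and the share with longer ends 16.4%, 2.78% and 21.1%. Here too the 48% libraries have the long setting and the 78% ones the short.

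The merged lists held 98646 regions, of which 257 overlapped a ribosomal protein gene or lay within 10000 bp of it with no closer gene. Every member had at least 1 such region and the median was 2, with 12 at most. At the more covered end lay 93 of them, at the other end alone 58, inside the gene away from both ends 49, and outside it 57. Of the 93 regions, 88 (94.6%) were listed in all 10 libraries. This was so at 22 of the 58, 1 of the 49 and 7 of the 57. The more covered end is the one chosen for its coverage, so its share is a description. Over all places 118 of the 257 member regions (45.9%) were listed in all 10 libraries, against 17.1% of the 91944 regions near any protein-coding gene. Regions that came or went between stages lay mostly away from the more covered end, which the choice of that end by its coverage favours.

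**Figure D5:**
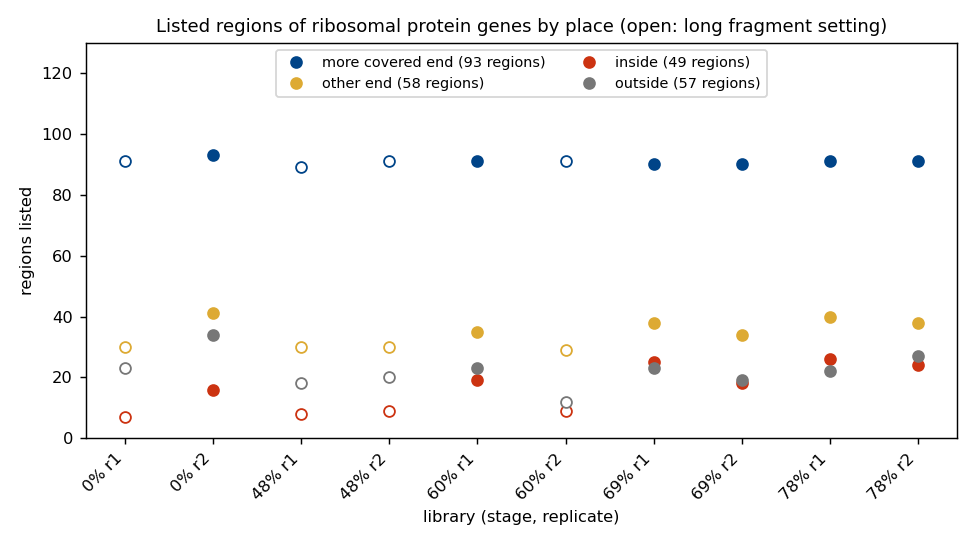
Number of listed regions of the 92 genes in each library by place: at the more covered end, at the other end alone, inside the gene and outside it. Open symbols mark libraries of the long fragment setting, which list 7 to 9 inside regions where the others list 16 to 26, while the more covered end stays at 89 to 93 regions.

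Between disc (0%) and wing (48%), 6 of 200 member regions opened (3%) and 17 closed (8.50%), a region being opened when both libraries of the later stage listed it and neither of the earlier, and closed in the reverse case. Of all regions near genes 9.13% opened and 19.3% closed. When only the first 41485 regions of every list were used, 14 member regions opened and 9 closed, so the excess of closed regions turned round. All 4 libraries listed 124 of the 200 (62.0%), against 30.1% of all. Among the opened regions were those at RpL24, RpL23, RpS4, RpL10 and RpL35A. Those at the other end of RpL24 (13393484 to 13393729) and of RpL35A (5465353 to 5466013) were listed in all 8 libraries from 48% on and in neither of 0%. The region inside RpL23 (22855243 to 22855344) was listed at 48% alone, in both libraries. That inside RpS4 (13043201 to 13043641) was listed in both libraries of 48% and 78% and in replicate 1 of 60%. The region 1739 bp from RpL10 was listed at every later stage, but by 1 library only at 69%.

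The 17 regions closed from 0% to 48% lay at 13 genes, 9 of them outside the gene. RpL40, which encodes a ribosomal protein fused to ubiquitin, closed at 2 regions, 5024 and 6264 bp away. RpL38 closed at 2 (4937 and 3759 bp away), RpL15 at 2 (4920 and 487 bp away), and RpL13 and RpS26 at 1 each (642 and 1498 bp away). RpL35A closed at 1, 279 bp away. RpL3, whose product lies close to the peptidyl transferase centre, closed at 2 regions at its other end (11224474 to 11224967 and 11225128 to 11225548, the second shared with scpr-C). A region at the other end of RpL27A closed (4457206 to 4457691), though the window there still had 38 and 58 bp covered at 48%. Inside the gene, RpL5, which binds the 5S RNA, closed at 22533952 to 22534614, RpS23 at 14215398 to 14215568, RpL12 at 24060696 to 24061021 and RpS4 at 13043685 to 13043941. The closed region at a more covered end was that of RpS5b. Both 48% libraries have the long setting. Against replicate 1 of 0% alone, which shares it, 13 of 176 regions opened and 18 closed (7.39% and 10.2%, against 15.4% and 28.1% of all).

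From 48% to 78%, 23 of 219 member regions opened (10.5%) and 6 closed (2.74%), against 15.8% and 5.36% of all regions. From the first 41485 regions of every list alone, 1 opened and 11 closed, so this balance turned round as well. Of the 23, 10 lay inside genes, 6 at the other end, 6 outside and 1 at a more covered end. The last was a region within RpS28-like (9436934 to 9437149) that reaches neither end. It overlaps the windows of both ends, as the gene is 424 bp long. Inside genes the opened regions were those of RpL22, RpS13, RpL5 (2), RpS23, RpL23A, RpL35A, RpL3, RpS19b and RpL4. Those of RpL23A (1667201 to 1667563), RpL35A (5466103 to 5466485) and RpL3 (11223018 to 11223532) were listed in all 4 libraries of 69% and 78% and in none before. At the other end were those of RpL27A, RpS27A, which encodes a ubiquitin fusion like RpL40, RpLP0-like, RpL8, RpL18 and the second region of RpL3, and outside genes they included those of RpL40, RpS26, RpL22-like and RpL35A. The other-end windows of RpL27A and RpL8 were listed at 48% already, with 38 and 58 bp at RpL27A and 106 and 101 bp at RpL8. Of the 23, 5 had closed from 0% to 48% (RpL27A, RpS26, RpL5, RpL35A and RpL3). Among all regions near genes the same was so at 2704 of the 10536 that opened. The member regions of RpL27A, RpL5 and RpL3 were listed by all 8 libraries other than the 48% ones, both of the long setting among them.

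The number of listed regions inside genes was lower under the long setting at every stage that holds both. Inside regions numbered 7 and 16 at 0%, 8 and 9 at 48%, 19 and 9 at 60%, 25 and 18 at 69%, and 26 and 24 at 78%, which is 7 to 9 in the long and 16 to 26 in the short setting. The openings inside RpL23A, RpL35A and RpL3 were listed by short libraries alone, those of 69% and 78%. They were absent from the short libraries of 0% and 60% and from every long library. For regions listed in short libraries alone, the stage and the setting cannot be told apart at 48%. Between libraries of the short setting, replicate 2 of 0% against both of 78%, 19 of 232 member regions opened and 30 closed (8.19% and 12.9%), against 13.9% and 24.4% of all. Inside genes 10 opened and 5 closed there, and outside 6 opened and 15 closed.

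The 6 regions closed from 48% to 78% were at RpL22 (1293 bp beyond the gene), RpL38 (4016 bp away), RpL23 (the inside region listed at 48% alone), RpL22-like (its other end), RpL15 (1391 bp away) and RpS3A on chromosome 4 (3567 bp away). None lay at a more covered end. Those of RpL22, RpL38 and RpL22-like had been listed in both libraries of 0% too, and those of RpL15 and RpS3A in replicate 2 of 0%. Between neighbouring stages the calls were fewer. From 48% to 60%, 8 of 187 opened and 4 closed (11.1% and 4.12% of all), from 60% to 69% 7 of 194 opened and 3 closed (7.42% and 2.7%), and from 69% to 78% 6 of 218 opened and 2 closed (3.09% and 4.41%). The region at the other end of RpS6 (7899683 to 7899863) was listed in both libraries of 69% and in no other, and the inside region of RpL18 (7240567 to 7240669) likewise.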

How the data were processed

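The deposited lists hold 1 line per region with its coordinates in dm6, given here counted from 1, and a score column that the authors' files set to the constant 1, which was not used. Per the file headers, HOMER findPeaks joined enriched 100 bp windows into regions (histone style, Poisson p threshold 0.001, local filter of 10000 bp at 0.0001, genome size 120000000, no input control); the headers name no shift of transposase cuts. Bowtie2, Picard, SAMtools and MACS2 are also named, per the submitters' processing notes, without versions. Regions of the 10 single-library lists were merged where they overlapped. Covered length was counted in windows of 250 bp to each side of both ends of each protein-coding gene of a RefSeq table of the same assembly (release 6), which has no strand, so the more covered end replaced the planned gene start. Planned promoter motifs and sequences were not analysed here.

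Stages were tested by exact permutation and with limma 3.58.1 (R 4.3.3) across all genes, with Benjamini-Hochberg adjustment and a threshold of 0.05. Both tests and the counting of covered bases were checked on simulated data. The values simulated for the tests had a normal spread, without the cap at the window and without an effect of the setting. P-values measure the spread between these libraries. The members, lists and tests were chosen with earlier results of these data known. Named genes are members not listed at an end in some library, the 3 with the longest and the 3 with the shortest mean covered length, members with an opened or closed region from 0% to 48% or 48% to 78%, and paralogs that differ in listing. Regions of 1 such gene are not reported here. RpS10a, RpL22, the X-linked genes and the other paralogs were chosen after their values were seen. Alternatives were other windows, coverage of at least 50%, an equal number of regions per library, pooled lists, scaled lengths, each replicate left out and a replicate block; those with limma or with the short setting alone were added after the data had been examined.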

Additional observations from a re-analysis of the deposited data

How the results depend on the processing

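The count of 88 members listed at an end in all 10 libraries was 86 with 100 bp and 89 with 500 bp to each side, 87 with 41485 regions per library, 75 with at least 50% of a window covered, 88 to 89 with each replicate left out and 88 in the 6 short-setting libraries. Median covered length by stage was 201, 201, 201, 200.5 and 201 bp with 100 bp to each side and 768, 774, 795, 726 and 688 bp with 500 bp, as the windows themselves differ. At 78% it was 405 bp with an equal number of regions and 436 bp after division by each library's mean. Leaving out each replicate gave 435 to 464.5 bp at 0%, 457 to 462.5 bp at 48%, 423 to 485 bp at 60%, 410 to 434.5 bp at 69% and 415 to 417.5 bp at 78%. The permutation test passed 0 members under all its alternatives, the replicate block included, whose smallest possible p is 0.00833. With such a limit a pass needs many genes at small p together, so these counts of 0 do not show that members were unchanged. The limma F-test called 9, with the fragment setting 8, with the replicate block 5 and with the dated folder 5. The labels give no shared animal, batch or day for replicate numbers, but the number follows the dated folder of the headers at all stages but 48%, where both libraries are in the first. Deviations of libraries with the same number correlated at -0.29 to 0.11 across genes, over 0.1 in 1 of 10 stage pairs.

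Counts of opened and closed regions changed with the settings. With lists of equal length the balance of opened and closed regions turned round in both comparisons. From 0% to 48%, 6 opened became 14 with an equal number per library, 11 with the pooled lists, 0 with windows at the more covered end and 10 to 18 with each replicate left out, and 17 closed became 9, 40, 2 and 24 to 44. From 48% to 78%, 23 opened became 1, 57, 0 and 43 to 47, and 6 closed became 11, 10, 0 and, with either replicate left out, 13, or 18 with at least 50% of a region covered. With a replicate left out the rule rests on 1 library per stage, so more regions can meet it. The cause of the other differences was not tested. The permutation test gives no value with a replicate left out, since no spread within stages remains.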
